A study of Homo sapiens with 8 samples.

Results

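Transfection of siRNA against the kinases LATS1 and LATS2 together with siRNA against p53 was compared with p53 siRNA alone in MCF10A, an immortalised, non-tumorigenic human breast epithelial line with basal features. Of the 8 libraries of the series, 4 carry this comparison. Both sip53 libraries came from cells transfected with siRNA against p53, and both siLATS_p53 libraries from cells transfected with siRNA against LATS1, LATS2 and p53. The sip53 libraries are the controls here, so p53 siRNA is present in all 4. The other 4 libraries, siControl (control siRNA) and siLATS (LATS1/2 siRNA with no p53 siRNA), entered the same fit and are compared with these at the end. The number of a library names its batch of cells, the 2 batches being independent, and each siLATS_p53 library was set against the sip53 library of its own batch. The knockdowns were transient and made in a single line, the LATS1 and LATS2 siRNAs were given together, with siRNA doses and times not given in the sources used here. Of the 29991 entries of the deposited table, 12315 were above its floor in at least 2 of 8 libraries and were tested.

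LATS1 and LATS2 are the last kinases of the Hippo pathway. With their MOB1 cofactors they phosphorylate the transcriptional coactivators YAP and TAZ, which are then kept out of the nucleus or degraded. YAP and TAZ do not bind DNA themselves and reach their targets mostly through TEAD transcription factors. In mammary epithelium the pathway is known for its control of growth, of cell shape responses and of the balance between basal and luminal traits. LATS2 is also known to bind MDM2, the ubiquitin ligase that keeps p53 low, so that the 2 knockdowns act on pathways with a known link.

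Expression is given as the deposited log2 value, on which 1 unit is a 2-fold change and 5 is the floor, the value to which all lower ones had been set. Differences are siLATS_p53 minus sip53 with the standard error (SE) of a limma fit that holds the batch as a block, with p-values adjusted over the 12315 entries by the Benjamini-Hochberg method. A gene is said to have risen or fallen where that value was under 0.05. Depth was not given. The spacing of low values put it at 29.5 and 25.6 M reads for sip53 and at 11.3 and 30.8 M for siLATS_p53, so that the first siLATS_p53 library was the shallowest of the 8. Messenger RNA was pooled from whole cultures, so fewer cells of a type and less RNA per cell cannot be told apart. The basal breast epithelium markers KRT5, KRT14, KRT17, TP63, ITGA6 and CDH3 were above the floor in all 4 libraries, with a summed linear signal of 150491 and 188258 in sip53 and 137172 and 159238 in siLATS_p53. The fibroblast list summed to 1817 and 923 in sip53 and to 2043 and 1380 in siLATS_p53, with 6 of 10 markers, COL1A2, COL3A1, LUM, PDGFRA, PDGFRB and THY1, at the floor in all 8 libraries. The blood and endothelial list summed to 1145 and 1014 in sip53 and to 984 and 910 in siLATS_p53, with 7 of 10 markers at the floor in all 8, CD3E, CDH5, HBB, PECAM1, PTPRC and VWF among them.

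Both targeted kinases were lower in the cells that received their siRNAs. LATS1 was 9.87 and 9.94 in the sip53 libraries and 7.97 and 7.90 in the siLATS_p53 libraries, a fall of −1.97 ± 0.11 (SE, adjusted p = 2.96e-08, limma). LATS2 was 9.74 and 10 in sip53 and 8.75 and 8.81 in siLATS_p53, a fall of −1.09 ± 0.11 (adjusted p = 9.14e-06, limma). The groups did not overlap for either gene, and LATS2 fell by less than LATS1. CDKN1A, which encodes the cell cycle inhibitor p21 and is the usual readout of p53 activity, was 9.82 and 10.06 in sip53 and 9.89 and 10.16 in siLATS_p53. Its groups overlapped, and the difference of 0.08 ± 0.09 did not pass (adjusted p = 0.534, limma).

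**Figure D1:**
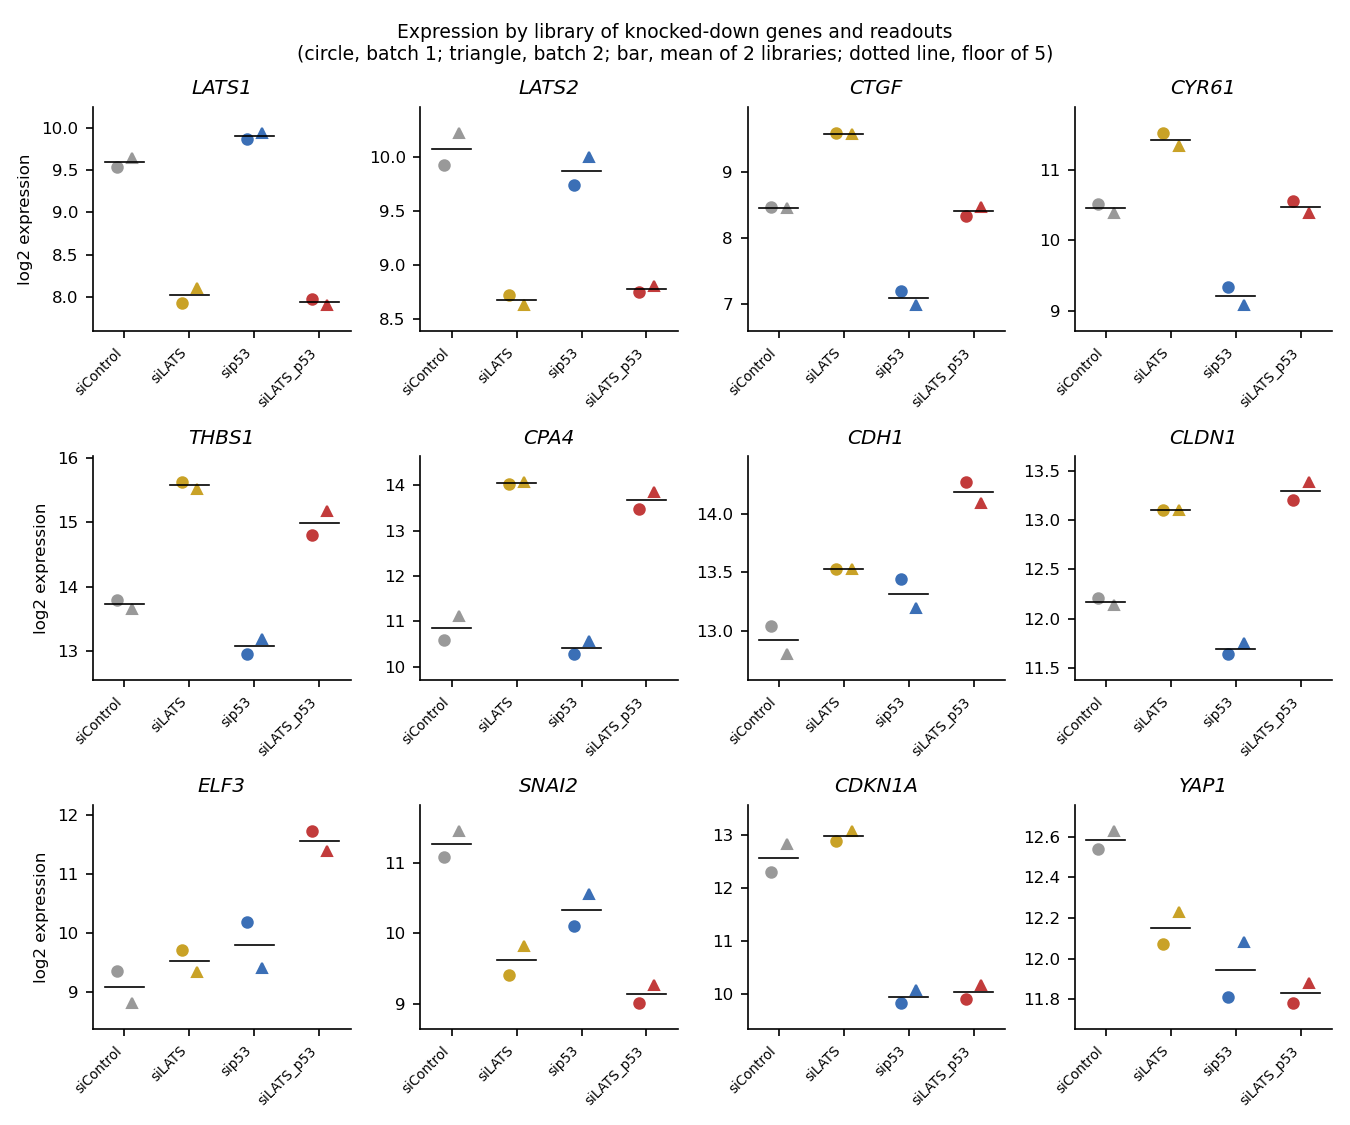
Log2 expression (y axis) of LATS1, LATS2 and other genes of the report in each library of the 4 siRNA groups (x axis). Circles are batch 1, triangles batch 2 and bars the mean of the 2 libraries of a group; LATS1 lies between 7.90 and 7.97 in the siLATS_p53 libraries and between 9.87 and 9.94 in the sip53 libraries, and each panel has its own y range.

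Adding the LATS1/2 siRNAs changed many genes, and more of the larger changes were rises. Of the 12315 entries 2720 passed (22.1%), of which 1560 rose (12.7%) and 1160 fell (9.42%). Every count of list members below is to be read beside these shares. At least 2-fold changes were called for 271 entries (2.20%), 219 of them rises and 52 falls. Among all entries tested, called or not, the differences of batch 1 and batch 2 had the same sign for 8807 (71.5%). They correlated with Pearson's r = 0.75 and Spearman's rho = 0.654, a description across genes, which are not independent replicates. The libraries of the groups did not overlap for 5931 entries (48.2%), with 25.5% higher and 22.7% lower. The number called rests on the pairing by batch, since 451 passed without the block, 449 of them also with it. It was 875 without the second sip53 library, 1252 without the first, 1328 and 1397 without the first and second siLATS_p53 library, and 1666 when only these 4 libraries were fitted.

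**Figure D2:**
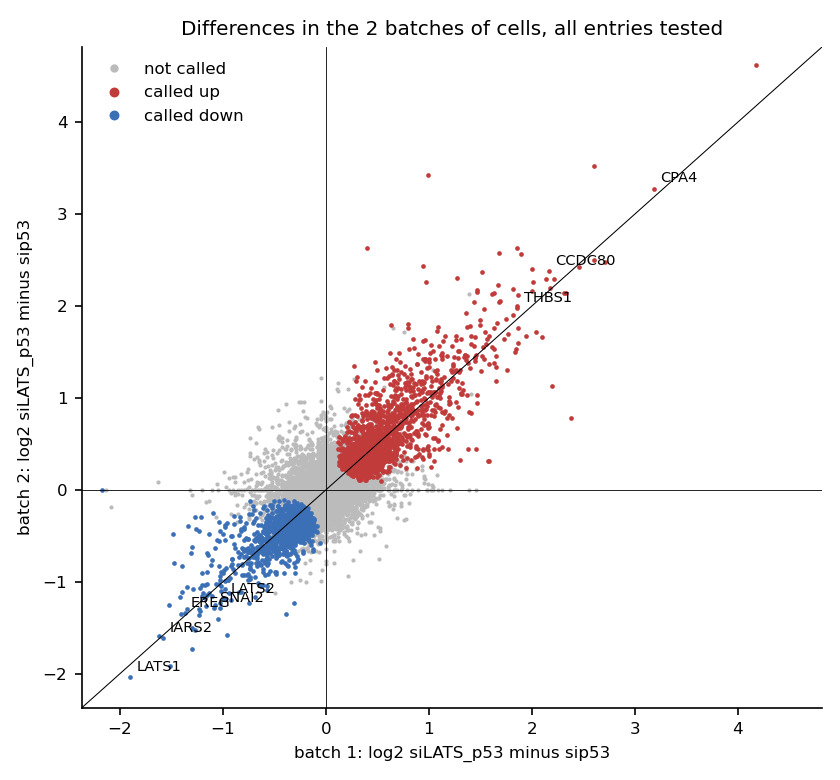
Log2 difference siLATS_p53 minus sip53 of each entry tested in batch 1 (x axis) and batch 2 (y axis), with entries called up in red, called down in blue and others in grey. The line marks equal differences, CPA4 lies near its upper end and LATS1 near its lower end, and r is 0.75 over all 12315 entries.

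Among the entries above the median level, 9.55 over these 4 libraries, CPA4 rose most. It encodes a secreted metallocarboxypeptidase. Its values were 10.28 and 10.57 in sip53 and 13.48 and 13.85 in siLATS_p53, a rise of 3.24 ± 0.09 (adjusted p = 3.03e-11, limma). Next came CCDC80, a matrix-associated secreted protein (2.27 ± 0.12), the simple epithelial keratin KRT8 (2.20 ± 0.10), the plasminogen activator inhibitor SERPINB2 (1.99 ± 0.08) and the surface glycoprotein CD24 (1.93 ± 0.07). THBS1, PLK2, ELF3, SCEL, CLDN1, CGN, AMOTL2, GPRC5A, NCEH1 and F3 completed the 15 largest rises, with differences from 1.92 down to 1.38. All 15 stayed called without each library in turn. KRT8 and CD24 have processed copies elsewhere in the genome, and reads may have been split among them.

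Genes that YAP and TAZ are known to activate rose together. Of 30 tested, 22 rose and 1 fell, against 12.7% and 9.42% of all entries, and the median difference was 0.61 against 0.01. The matricellular proteins CTGF and CYR61 are the usual readouts of YAP activity. CTGF was 7.20 and 6.98 in sip53 and 8.33 and 8.47 in siLATS_p53, a rise of 1.31 ± 0.12 (adjusted p = 4.43e-06, limma). CYR61 was 9.34 and 9.08 in sip53 and 10.56 and 10.39 in siLATS_p53, a rise of 1.26 ± 0.08 (adjusted p = 1.01e-07, limma). In both genes the 2 libraries of a group lay close together and the groups were more than 1 unit apart. THBS1, a matrix glycoprotein, was 12.95 and 13.19 in sip53 and 14.81 and 15.17 in siLATS_p53, a rise of 1.92 ± 0.11. AMOTL2, an angiomotin that binds YAP and is itself a target, was 10.71 and 10.60 in sip53 and 12.16 and 12.04 in siLATS_p53 (1.44 ± 0.08). F3, the initiator of coagulation, was 13.73 and 13.95 in sip53 and 15.08 and 15.36 in siLATS_p53 (1.38 ± 0.09). The target list was not uniform. ANKRD1, a further readout, lay at the floor in all 4 libraries, and INHBA, the activin subunit, fell by −0.65 ± 0.09 with sip53 values of 10.08 and 11.15 and siLATS_p53 values of 9.46 and 10.48. The fall of INHBA was seen within each batch and did not pass without the block (adjusted p = 0.565, limma). ASAP1, NT5E, AMOTL1, DOCK5 and FOXF2 did not pass, with differences from −0.15 (NT5E) to 0.32 (FOXF2). Without the block 13 of the list rose, and 17 to 22 with each library left out.

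TEAD factors bind the hexamer GGAATG, and promoters of 3 genes with large rises are shown because they hold it. Each is the RefSeq sequence (GRCh38.p14) of the 250 bases before the annotated start, read on the strand of the gene from 5′ to 3′, with GGAATG in capitals. CTGF, listed by RefSeq as CCN2, lies on the minus strand at chr6:131951373-131951622, THBS1 on the plus strand at chr15:39580829-39581078 and CPA4 on the plus strand at chr7:130292911-130293160.
CTGF: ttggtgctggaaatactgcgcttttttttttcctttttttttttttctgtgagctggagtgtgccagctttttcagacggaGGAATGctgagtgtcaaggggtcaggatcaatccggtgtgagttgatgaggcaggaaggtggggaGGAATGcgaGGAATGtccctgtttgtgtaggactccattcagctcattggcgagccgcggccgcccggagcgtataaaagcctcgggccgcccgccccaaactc
THBS1: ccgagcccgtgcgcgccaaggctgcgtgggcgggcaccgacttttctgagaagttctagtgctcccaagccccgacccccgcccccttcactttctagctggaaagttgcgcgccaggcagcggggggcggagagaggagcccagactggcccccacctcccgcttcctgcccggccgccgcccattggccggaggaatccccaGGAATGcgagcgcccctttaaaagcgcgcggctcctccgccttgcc
CPA4: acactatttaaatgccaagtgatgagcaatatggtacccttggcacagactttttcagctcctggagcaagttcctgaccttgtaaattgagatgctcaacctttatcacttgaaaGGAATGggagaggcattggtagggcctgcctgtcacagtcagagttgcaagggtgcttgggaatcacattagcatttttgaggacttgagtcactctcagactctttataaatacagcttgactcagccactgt
In CTGF the hexamers start 169, 104 and 95 bases before the gene start, in THBS1 46 bases and in CPA4 134 bases before it. Searched on both strands (GGAATG or CATTCC), the motif was in 11.9% of 27305 promoters of this length and in 9.21% of the 9540 matched to genes tested. It was in 11.2% of the 1174 matched promoters of genes that rose, in 9.77% of the 901 of genes that fell and in 30 of 158 (19%) of those that rose at least 2-fold. Among the YAP/TAZ targets that rose, 5 of the 17 matched held it (29.4%). Among the actomyosin and focal adhesion genes that rose it was in 1 of 16 (6.25%), and among the epithelial junction genes that rose in 0 of 9. These are matches of letters, and the deposited values hold no measure of TEAD binding.

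The coactivators and most TEADs moved little at the messenger level. YAP1 was 11.81 and 12.08 in sip53 and 11.78 and 11.88 in siLATS_p53, and its difference of −0.11 ± 0.07 did not pass (adjusted p = 0.27, limma). WWTR1, which encodes TAZ, fell by −0.35 ± 0.09 (adjusted p = 0.0166, limma), from 10.34 and 10.40 to 10.17 and 9.88. That call did not hold without the block (adjusted p = 0.168, limma), nor without either siLATS library or the second library of sip53 or siLATS_p53. VGLL3, a cofactor that binds TEADs, was 9.87 and 9.92 in sip53 and 11.15 and 10.82 in siLATS_p53, a rise of 1.09 ± 0.09 (adjusted p = 1.65e-06, limma). TEAD1 rose by 0.46 ± 0.07 and did not pass without the block (adjusted p = 0.0798, limma). TEAD2, TEAD3, TEAD4 and VGLL4 differed by 0.03 to 0.25 and did not pass.

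Of 25 Hippo pathway kinases and scaffolds tested 10 rose and 2 fell, against 12.7% and 9.42% of all entries, with a median of 0.20. WWC1, AJUBA, AMOTL2, AMOTL1, NF2 and PTPN14 are also on the YAP/TAZ target list, so these counts share genes with those above. The scaffold WWC1, known as KIBRA, rose by 0.85 ± 0.07 and the LIM protein AJUBA, which restrains LATS kinases, by 0.64 ± 0.08. AMOTL2 had the largest difference of the list. MOB1B, a LATS cofactor, fell by −0.71 ± 0.10, from 10.34 and 10.37 in sip53 to 9.81 and 9.49 in siLATS_p53, with adjusted p = 0.0531 (limma) without the block. Only 3 of the 10 rises passed without the block. The rises numbered 3 without the first siLATS_p53 or the first sip53 library and 6 without the second sip53 library.

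Genes of epithelial junctions rose more often than they fell. Of 31 tested 17 rose and 2 fell, with a median of 0.35. CLDN1, a claudin of tight junctions, was 11.64 and 11.75 in sip53 and 13.21 and 13.39 in siLATS_p53, a rise of 1.61 ± 0.07 (adjusted p = 3.79e-09, limma). CGN, the tight junction plaque protein cingulin, was 9.53 and 9.51 in sip53 and 10.93 and 11.11 in siLATS_p53 (1.5 ± 0.09). CDH1, which encodes E-cadherin, was 13.44 and 13.19 in sip53 and 14.27 and 14.09 in siLATS_p53 (0.87 ± 0.07). In these genes both siLATS_p53 libraries lay above both sip53 libraries, with a narrow spread within groups. The 2 falls were desmosomal, DSC3 (−0.81 ± 0.07), which encodes a cadherin, and DSP (−0.23), which encodes desmoplakin. Without the block 8 rose and 1 fell, and the rises numbered 9 without the second sip53 library and 10 without the first siLATS_p53 library.

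Transcription factors of epithelial identity moved the same way, with 7 of 12 up and 1 down. ELF3, an ETS factor of simple epithelia, was 10.19 and 9.41 in sip53 and 11.73 and 11.39 in siLATS_p53, a rise of 1.76 ± 0.10 (adjusted p = 6.08e-08, limma). GRHL3, a grainyhead factor of barrier formation, was 8.65 and 8.59 in sip53 and 9.66 and 9.65 in siLATS_p53 (1.04 ± 0.11). KLF4 rose by 0.79 ± 0.13. The rises numbered 4 without the block, 4 without the first siLATS_p53 or second sip53 library and 3 without the first sip53 library. Of 11 simple epithelial keratins and luminal markers 7 rose and 1 fell, with a median of 0.83. KRT8 was 10.12 and 9.15 in sip53 and 12.11 and 11.54 in siLATS_p53, and CD24 was 12.52 and 12.01 in sip53 and 14.38 and 14.01 in siLATS_p53. Batch 1 was higher than batch 2 for both genes within both groups, and the groups still did not overlap. The partner keratin KRT18 rose by 0.83 ± 0.07, with the same reservation on processed copies, and KRT7 by 0.86 ± 0.08. ERBB3, the receptor of luminal cells that pairs with ERBB2, was 9.88 and 9.43 in sip53 and 10.99 and 10.54 in siLATS_p53 (1.11 ± 0.10). AREG, the fall of this list, is given with the other EGF ligands.

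Basal genes more often moved down, by small amounts. Of 19 basal and hemidesmosome genes 8 fell and 2 rose, with a median of −0.17. The basal keratin KRT14 fell by −0.52 ± 0.07, with 13.50 and 14.19 in sip53 and 12.91 and 13.73 in siLATS_p53. Its groups overlapped, because batch 2 was higher in both, and it did not pass without the block (adjusted p = 0.572, limma). The hemidesmosome components ITGA6 (−0.55 ± 0.08) and COL17A1 (−0.50 ± 0.07) and the calcium-binding protein S100A2 (−0.44 ± 0.08) fell by similar amounts. Without the block none of the 8 falls passed, with adjusted p = 0.0514 for ITGA6, 0.261 for COL17A1 and 0.372 for S100A2 (limma). They numbered 5 without the first sip53 or either siLATS_p53 library, and S100A2 did not pass without the second siLATS_p53 library. The placental cadherin CDH3 rose by 0.54 ± 0.07, the opposite direction to most of the list.

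SNAI2 encodes SLUG, a repressor of epithelial genes that is expressed in basal mammary cells. It was 10.10 and 10.55 in sip53 and 9.01 and 9.27 in siLATS_p53, a fall of −1.19 ± 0.08 (adjusted p = 3.89e-07, limma). Both siLATS_p53 libraries lay below both sip53 libraries. Of 19 mesenchymal genes 5 rose and 3 fell (42.1% called), and the median was 0.04. The rises were in contractile and matrix genes, TAGLN, FBN1, SPARC, COL1A1 and FN1. TAGLN, an actin-binding protein of smooth muscle, was 8.38 and 8.23 in sip53 and 9.93 and 9.95 in siLATS_p53 (1.64 ± 0.10), and FBN1, which encodes fibrillin, rose by 1.27 ± 0.12. SPARC (0.88 ± 0.13), COL1A1 (0.76 ± 0.17) and FN1 (0.63 ± 0.09) did not pass without the block (adjusted p = 0.694, 0.102 and 0.207, limma), nor COL1A1 without the second sip53 or either siLATS_p53 library. The falls were in the transcription factors SNAI2 and FOXC2 (−0.95 ± 0.20) and in the intermediate filament VIM (−0.30 ± 0.08), of which SNAI2 alone passed without the block. The falls numbered 1 without the first siLATS_p53 or the second sip53 library. ZEB1, a repressor of CDH1, was 6.83 and 6.69 in sip53 and 6.87 and 6.69 in siLATS_p53, with a difference of 0.02 ± 0.16 (adjusted p = 0.954, limma).

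Actomyosin and focal adhesion genes rose without a called fall. Of 36 tested 20 rose, with a median of 0.27. MYL9, the regulatory light chain of nonmuscle myosin, was 5.91 and 5.69 in sip53 and 8.24 and 7.82 in siLATS_p53, a rise of 2.23 ± 0.14 (adjusted p = 1.36e-07, limma). Its sip53 values lay above the floor but near it, where depth limits what is measured. The tropomyosin TPM1 was 10.14 and 9.75 in sip53 and 11.09 and 10.91 in siLATS_p53 (1.06 ± 0.08). ARHGAP29, a GTPase-activating protein for RhoA, rose by 1.00 ± 0.07 and the calponin CNN3 by 0.90 ± 0.09. Most rises in this list were small and depended on the block and on single libraries. Without the block 5 passed, and 7, 8, 8 and 13 passed without the second sip53, first sip53, first siLATS_p53 and second siLATS_p53 library.

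Genes of the extracellular matrix moved mostly up, with 17 of 32 up, 6 down and a median of 0.32. Without the block 6 rose and 1 fell, and the falls numbered 3 without the first siLATS_p53 or the second sip53 library. Beside THBS1 and FBN1, the metalloproteinase ADAMTS1 was 6.22 and 6.71 in sip53 and 7.69 and 8.85 in siLATS_p53 (1.81 ± 0.16, and adjusted p = 0.0782 without the block, limma). The fibril-associated collagen COL12A1 rose by 0.93 ± 0.07. TIMP2 rose by 0.95 ± 0.08 and did not pass without the block (adjusted p = 0.113, limma). Among 12 integrins 3 rose, ITGA1 (0.42 ± 0.08), ITGB6 (0.31 ± 0.08) and ITGA3 (0.28 ± 0.07), and 3 fell. The integrin rises numbered 0 without the block, 0 without the first sip53 or first siLATS_p53 library and 1 without the second of either, and 1 fall was left without the block. ITGA2, the collagen receptor subunit, fell by −0.81 ± 0.08, from 12.36 and 12.26 in sip53 to 11.54 and 11.45 in siLATS_p53. ITGA10 fell by −1.38 ± 0.16 and did not pass without the block (adjusted p = 0.0872, limma). Plasminogen activation genes rose in 8 of 13 cases and fell in 2. The urokinase PLAU rose by 0.68 ± 0.09 and its receptor PLAUR by 0.59 ± 0.07, while the anticoagulant receptor THBD fell by −0.75 ± 0.09. The 8 rises became 5 without the first siLATS_p53 or the second sip53 library and without the block.

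SERPINB2, which blocks urokinase, was 10.07 and 9.94 in sip53 and 11.93 and 12.06 in siLATS_p53, a rise of 1.99 ± 0.08 (adjusted p = 1.47e-09, limma). Its libraries were nearly equal within each group. Of 9 clade B serpins, 3 rose and 2 fell. SERPINB7 rose by 1.42 ± 0.15 and SERPINB13 by 0.82 ± 0.09, while SERPINB5, which encodes maspin and is a known p53 target, fell by −0.65 ± 0.07 (adjusted p = 0.111 without the block, limma). Of 24 squamous genes 8 rose and 5 fell, with a median of 0.19. SCEL, the cornified envelope precursor sciellin, was 10.50 and 10.94 in sip53 and 12.34 and 12.44 in siLATS_p53 (1.67 ± 0.08). The kallikrein protease KLK10 rose by 1.11 ± 0.08. Squamous rises numbered 3 without the block and 5 without either siLATS_p53 library or the second sip53 library, and squamous falls 0 and 1 without the block and the first sip53 library.

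Some ligands of the EGF receptor and some genes that report ERK signalling were among the falls, while others of both kinds rose. Differences of the 16 ERK feedback genes ran from −1.09 to 0.89, with a median of −0.15. EREG, which encodes epiregulin, was 11.49 and 11.24 in sip53 and 10.12 and 9.90 in siLATS_p53, a fall of −1.35 ± 0.11 (adjusted p = 1.64e-06, limma). AREG, which encodes amphiregulin, was 13.65 and 13.51 in sip53 and 12.36 and 12.88 in siLATS_p53, a fall of −0.96 ± 0.12 with adjusted p = 0.0529 (limma) without the block. The groups did not overlap for either ligand. The list of 13 EGF receptors and ligands had 5 falls and 6 rises, and the rises held the receptors ERBB3 (1.11 ± 0.10) and ERBB2 (0.59 ± 0.07) and the ligand NRG1 (0.77 ± 0.10, adjusted p = 0.273 without the block, limma). Without the block the falls numbered 1 and the rises 2, and with a library left out 2 to 5 and 3 to 6. Of 16 ERK feedback genes 7 fell and 3 rose, with 3 falls left without the block or the second sip53 library and 4 without the second siLATS_p53 library. DUSP6, the phosphatase of ERK, was 11.05 and 11.15 in sip53 and 10.06 and 9.97 in siLATS_p53, a fall of −1.09 ± 0.08 (adjusted p = 6.59e-07, limma). The feedback inhibitor SPRY4 fell by −0.57 ± 0.09 and the ETS factor ETV4 by −0.58 ± 0.10, ETV4 not passing without the second sip53 library. EGR1 was 9.52 and 9.67 in sip53 and 8.40 and 8.51 in siLATS_p53 (−1.13 ± 0.10), and FOS fell by −1.03 ± 0.11. The wider immediate early list was mixed, with 7 of 21 up and 5 down, and the stress factors ATF3 (1.01 ± 0.16) and JUN (0.86 ± 0.09) rose. Without the block 2 of that list rose and 2 fell, and with a library left out 4 to 7 rose and 2 to 6 fell.

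Some inflammatory genes rose while others fell, with 8 of 23 NF-kB targets and cytokines up and 3 down, or 3 up and 0 down without the block. IL6 lay at the floor in both sip53 libraries and was 7.18 and 7.20 in siLATS_p53, so that the difference of 2.19 is a lower bound. IL32 rose by 1.40 ± 0.11, from 7.86 and 7.96 to 9.21 and 9.41. ICAM1, the leukocyte adhesion receptor, rose by 1.47 ± 0.11 and the IL6 family cytokine LIF by 1.19 ± 0.12, both without a call in the fit with no block (adjusted p = 0.117 and 0.347, limma). CSF3, the granulocyte colony-stimulating factor, was 13.45 and 12.75 in sip53 and 12.22 and 11.39 in siLATS_p53, a fall of −1.29 ± 0.14. Batch 2 lay below batch 1 in both groups, and without the block CSF3 did not pass (adjusted p = 0.283, limma).

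Interferon-stimulated genes had the highest median of the 31 lists, 1.06, and 27 of 35 rose with none falling, 14 of them at least 2-fold. Their values also differed between the batches. IFIT2, an antiviral RNA-binding protein, was 6.52 in batch 1 and at the floor in batch 2 of sip53, and 8.38 and 7.63 in siLATS_p53 (2.24 ± 0.27, adjusted p = 4.12e-05, limma). Because of that floor value its difference is a lower bound. IFIT3 was 7.91 and 5.99 in sip53 and 9.80 and 8.56 in siLATS_p53 (2.23 ± 0.29). Within each batch the siLATS_p53 library was higher, and for both genes batch 1 was higher than batch 2 in both groups. IRF1, a transcription factor of the interferon response, was 9.04 and 8.88 in sip53 and 9.78 and 9.76 in siLATS_p53 (0.81 ± 0.11), and it was the only member of the list called without the block. The proteasome subunit PSMB8 rose by 0.60 ± 0.09 and did not pass without the block (adjusted p = 0.189, limma). The count of 27 fell to 4 without the second siLATS_p53 library, to 9 without the first, to 10 without either sip53 library and to 16 after rescaling by medians of ratios. In the cells without p53 siRNA the list moved alike, with 31 of 35 up, 0 down and a median of 1.00. Batches differed there too. Against siControl, siLATS was higher by 2.22 in batch 1 and 0.85 in batch 2 for IFIT2, and by 2.87 and 1.10 for IFIT3. IFIT1 was 9.42 in the first siLATS library and at the floor in the second, as in both libraries of siControl.

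**Figure D3:**
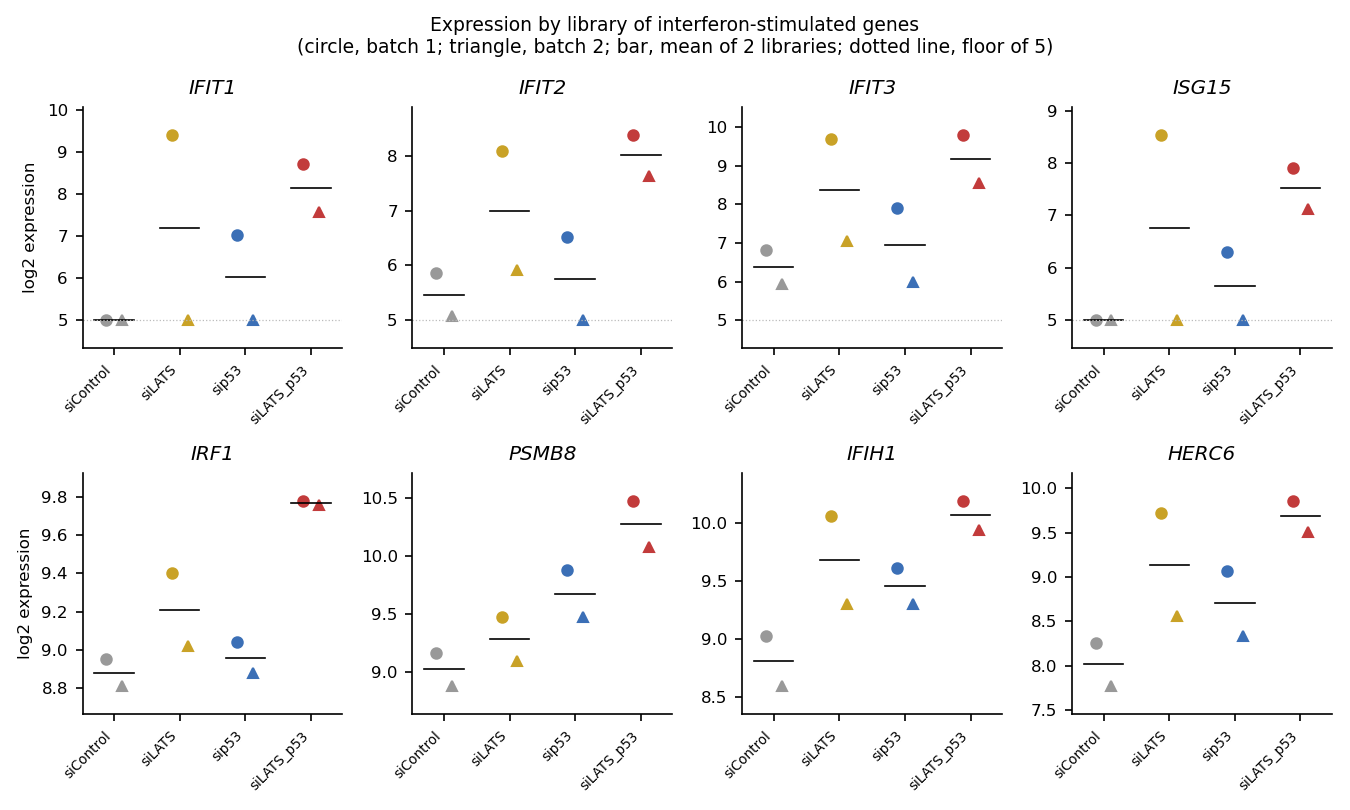
Log2 expression (y axis) of 8 interferon-stimulated genes in each library of the 4 siRNA groups (x axis), with circles for batch 1, triangles for batch 2, bars for group means and a dotted line at the floor of 5. IFIT2 is 8.38 and 7.63 in siLATS_p53, and for IFIT1 the first siLATS library stands at 9.42 while the second is at the floor.

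Cell division genes changed little when LATS1/2 siRNA was added to p53 siRNA. Of 42 G2/M genes 10 fell and 0 rose (median −0.11), so that 23.8% fell against 9.42% of all entries and none rose against 12.7%. Of 45 S phase genes 6 rose and 6 fell (median −0.08), a called share of 26.7% beside 22.1% of all entries. CENPE, a mitotic kinesin, fell by −0.44 ± 0.07, from 12.31 and 12.21 to 11.88 and 11.75. No G2/M gene passed without the block, where CENPE had adjusted p = 0.093 (limma), and 3, 2, 4 and 1 passed without the first siLATS_p53, second siLATS_p53, first sip53 and second sip53 library. CCNE2, a cyclin of S phase entry, rose by 0.55 ± 0.11 and did not pass without the second sip53 library. S phase calls numbered 1 up and 0 down without the block and 1 to 2 up and 0 to 2 down without a sip53 or siLATS_p53 library. Direct targets that p53 activates showed no common direction, with 5 of 43 up, 6 down and a median of 0.02, a called share of 25.6%. Without the block 2 rose and 1 fell, and with a library left out 2 to 5 rose and 1 to 8 fell. PLK2, a polo-like kinase, was 9.62 and 9.54 in sip53 and 11.44 in both siLATS_p53 libraries, a rise of 1.86 ± 0.08 (adjusted p = 3.79e-09, limma). GADD45A, a growth arrest gene, rose by 0.67 ± 0.10, and the desmosomal protein PERP fell by −0.56 ± 0.08. MDM2 fell by −0.32 ± 0.08 (adjusted p = 0.016, limma), a call that did not hold without the block (adjusted p = 0.274, limma), nor without either siLATS or either sip53 library or the second siLATS_p53 library.

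The largest falls among genes above the median level held genes of several functions. EMB, which encodes the adhesion protein embigin, was 12.31 and 12.07 in sip53 and 10.70 and 10.48 in siLATS_p53, a fall of −1.60 ± 0.07 (adjusted p = 3.00e-09, limma). IARS2, the mitochondrial isoleucyl-tRNA synthetase, was 14.25 and 14.00 in sip53 and 12.67 and 12.39 in siLATS_p53, a fall of −1.59 ± 0.07. For both genes the 2 batches gave nearly the same difference. FLRT3, an adhesion protein that binds FGF receptors, fell by −1.51 ± 0.12. OSTM1 (−1.27 ± 0.09), the glycosyltransferase B3GALNT2 (−1.26 ± 0.07), PID1 (−1.22 ± 0.11), the carbonic anhydrase CA12 (−1.16 ± 0.06), TNFRSF21 (−1.03 ± 0.08) and GOLIM4 (−1.03 ± 0.08) followed. The receptor kinase ROS1 (−1.06 ± 0.10) and MTSS1 (−1.05 ± 0.09) did not pass without the block (adjusted p = 0.243 and 0.0809, limma). EREG, CSF3, SNAI2 and DUSP6, described above, complete the 15.

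The other lists are given by their counts. Housekeeping lists gave 7 rises and 0 falls of 30 ribosomal protein genes (median 0.17) and 2 rises and 0 falls of 31 proteasome subunits (median 0.05), called shares of 23.3% and 6.45% beside 22.1% of all entries. Without the block neither list had a call. The 7 ribosomal rises became 0 without the first siLATS_p53 or the second sip53 library and 2 without the first sip53 or either siLATS library. Of 28 ATF4 and unfolded protein response genes 1 rose and 2 fell, a called share of 10.7%. Hypoxia and glycolysis genes had 3 rises and 8 falls of 29 (37.9% called). The vasodilator peptide ADM was up by 1.31 ± 0.11 and CA12 was down. Of 28 cholesterol synthesis genes 3 rose and 6 fell (32.1% called), with INSIG1 (−0.66 ± 0.06), which restrains sterol synthesis, among the falls. TGF-beta genes had 3 rises and 4 falls of 24, with LTBP1, which anchors latent TGF-beta in the matrix, down by −0.78 ± 0.07. The called TGF-beta share was 29.2%, and without the block 0 rose and 2 fell, with 1 to 4 rises and 3 to 4 falls when a library was left out. Of 15 Notch genes 3 rose and 5 fell, the largest fall being DNER (−0.97 ± 0.08), a Notch ligand. Without the block 1 fall was left in each of the hypoxia, cholesterol and Notch lists, and without 1 library 4 to 7, 1 to 6 and 2 to 5. Their rises numbered 1, 0 and 0 without the block, and 1 to 4, 0 to 3 and 0 to 3 without 1 library. Of the fibroblast markers 3 were tested, and COL1A1 rose, FAP rose by 0.67 ± 0.09 (adjusted p = 0.198 without the block, limma) and DCN fell by −1.14 ± 0.17. DCN was 9.53 and 6.14 in sip53 and 8.39 and 5 in siLATS_p53, so batch differed more than treatment and its second siLATS_p53 value was the floor (adjusted p = 0.773 without the block, limma). Of the 3 blood and endothelial markers tested, CD14 (−0.24 ± 0.13) and CD68 (−0.33 ± 0.11) were lower and did not pass (adjusted p = 0.231 and 0.0505, limma). KDR rose by 0.80 ± 0.22, a lower bound, from the floor in both sip53 libraries to 6.13 and 5.47. It had adjusted p = 0.118 (limma) without the block. KDR also did not pass without either sip53 library or the first siLATS_p53 library.

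**Figure D4:**
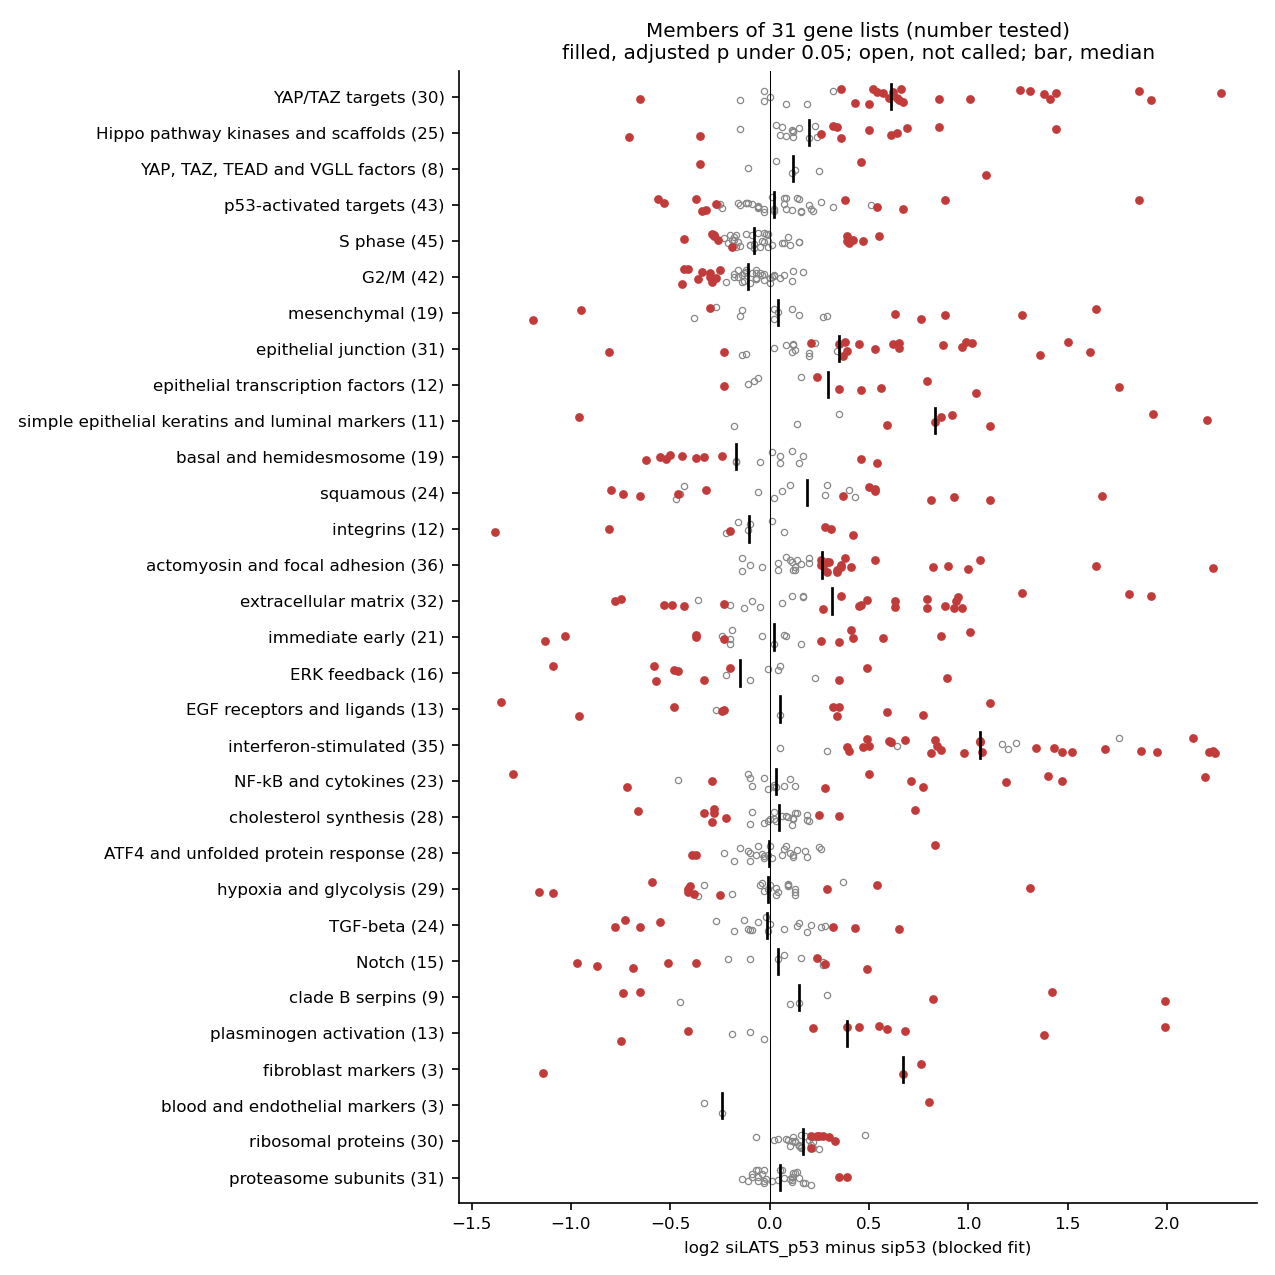
Log2 difference siLATS_p53 minus sip53 (x axis) of every tested member of 31 gene lists (y axis, number tested in brackets), filled where the adjusted p was under 0.05 and open otherwise, with a bar at the median. The YAP/TAZ target median is at 0.61 and the interferon-stimulated median at 1.06, while the p53 target median is at 0.02.

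The same siRNAs were also given without p53 siRNA, which allows the difference between the effects to be tested. Without p53 siRNA, and against siControl, they raised 1299 entries (10.5%) and lowered 2638 (21.4%), or 948 in all without the block. This pair of groups shares no library with the one above. Over all entries tested the effects in both settings correlated with r = 0.719 and rho = 0.598, a description across genes measured in the same batches. Of the 1560 genes that rose on p53 siRNA, 830 also rose without it, 25 fell there and 705 did not pass. Of the 1160 that fell, 877 also fell, 3 rose and 280 did not pass. CPA4 rose by 3.24 with p53 siRNA and by 3.2 without it, and IARS2 fell by −1.59 and −1.66. YAP/TAZ targets rose in 22 and 23 of 30 cases, with a median of 0.61 in both settings. S phase genes fell in 6 of 45 cases with p53 siRNA and in 32 without it, and G2/M genes in 10 and 36 of 42.

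The test of the difference itself, the interaction, passed for 250 entries (2.03%), 216 with a more positive effect under p53 siRNA (1.75%) and 34 with a less positive one (0.276%). Among the S phase genes it passed for 3 and among the G2/M genes for 1, so the lower counts of falls with p53 siRNA are not shown gene by gene. Over all entries tested the median effect was 0.013 with p53 siRNA and −0.074 without it, and the median interaction was 0.097. After rescaling by medians of ratios the median interaction was 0.004. How much of the excess of positive differences comes from this offset was not tested. ELF3 rose by 1.76 with p53 siRNA and by 0.44 without, a difference of 1.32 (adjusted p = 0.00257, limma). CLDN1 rose by 1.61 and 0.92 (difference 0.68, adjusted p = 0.00934, limma) and KLK10 by 1.11 and 0.41 (0.70, adjusted p = 0.00934, limma). Without p53 siRNA, IL6 exceeded the floor in the first siLATS library alone, at 5.38, so its effect there was not measurable and the difference between its effects has no size. SERPINB5 fell by −0.65 with p53 siRNA and by −1.40 without it. ADAMTS1 rose less with p53 siRNA, by 1.81 against 3.19. No interaction held after rescaling by medians of ratios (0 called, 1912 entries with unadjusted p under 0.05, smallest adjusted p 0.0849, limma) or without the block (0 called, 807 with unadjusted p under 0.05). It passed for 37 entries without the first siControl library, for 1 without either sip53 library and for 0 without any other library, so these differences rest on all 8 libraries and on the deposited scaling.

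**Figure D5:**
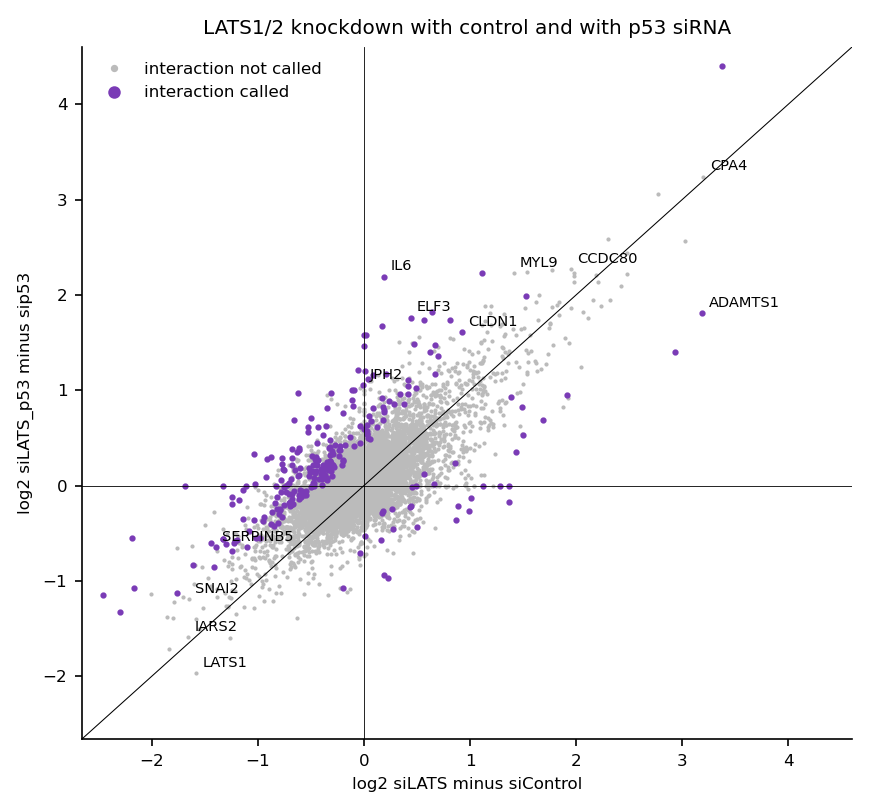
Log2 effect of LATS1/2 siRNA without p53 siRNA (x axis, siLATS minus siControl) and with p53 siRNA (y axis, siLATS_p53 minus sip53) for each entry tested, in purple where the interaction passed. The line marks equal effects, CPA4 lies close to it, and ELF3 lies above it.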

How the data were processed

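Polyadenylated RNA was sequenced in 8 libraries, prepared with a TruSeq version 2 kit that does not keep strand and pooled on a lane, per the labels' protocols; overlapping and antisense genes cannot be told apart. TopHat and hg19 were used, per the submitters' processing notes. The scaling, like the read counter and annotation, was not given in the sources used here. Log2 expression levels were deposited, which the authors had floored at 5 (32 linear). Base 2 gave the most even spacing of low linear values in 8 of 8 libraries. Depths are estimates from that spacing, between 11.3 and 37.1 M reads per library. The floor stood for 14.6 to 50 reads and understates changes of low genes.

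The 12315 of 29991 entries that exceeded the floor in 2 or more libraries (17422 were at the floor throughout) entered limma 3.58.1 (R 4.3.3), in 1 fit over 4 groups of 2 libraries with a mean-variance trend, the batch as a block and 3 residual degrees of freedom. Per the labels, equal numbers mark the same batch of cells, and the deviations of same-numbered libraries from their group means correlated between 0.565 and 0.726. Benjamini-Hochberg adjusted p under 0.05 was called. The steps were also run on simulated data with independent noise and a batch offset common to all groups. Such data follow the model with the block, so they cannot test whether the block is right.

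The members and the 31 gene lists were chosen with earlier results of these data known, and support nothing by themselves. Genes were named by rule: the knocked-down genes, the 15 largest called rises and falls above the median level with groups apart and the same direction in both batches, up to 5 members of a list by smallest p, 9 readouts and 10 interaction genes. Other list members given as examples were chosen after their values were seen. The 147 entries repeating a symbol, families with near-identical copies, the p53 transcript and some genes the rule or lists took are not reported here. Promoters came from RefSeq (GRCh38.p14), matched by symbol for 9540 of 12168 genes. Alternatives were rescaling, other filters, pseudocounts of 1 and 32, no block, no trend, fewer groups and each library left out. A lone library left in a group is taken to vary as the other groups do. Added after seeing the data were no block with rescaling and leaving out the 2 libraries of lowest estimated depth.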

Additional observations from a re-analysis of the deposited data

Results flagged for a closer look

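The effect of the LATS1/2 siRNAs with p53 siRNA minus that without it passed limma's interaction test for 23 of the genes named, 20 with a positive and 3 with a negative difference. Over all entries tested the median of this difference was 0.097. All values are log2 differences, with adjusted p-values from 0.00257 to 0.0473. None of them passed after rescaling by medians of ratios or without the batch block. Epithelial and squamous genes had ELF3 at 1.32, CLDN1 at 0.68, KRT7 at 0.48, PPL at 0.73, KLK10 at 0.70 and the integrin ITGB6 at 0.55. Clade B serpins had SERPINB1 at 0.97, SERPINB5 at 0.75, SERPINB2 at 0.47 and SERPINB13 at −0.66, so that both directions occurred in the family. Inflammatory genes had IL6 at 2.00, ICAM1 at 0.80, IL32 at 0.78, the manganese superoxide dismutase SOD2 at 0.70 and the factor CEBPB at 0.57. The IL6 value is neither a size nor a bound, because sip53, siControl and the second siLATS library were all at the floor. Matrix genes had ADAMTS1 at −1.38 and COL12A1 at −0.46, both rising less with p53 siRNA. Of the others, the junctophilin JPH2 was at 1.06, the sulphate transporter SLC26A2 at 0.90, the calcium pump ATP2B4 at 0.75, PLAU at 0.62, EGR1 at 0.62 and KLF6 at 0.50.

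JPH2 was 9.58 and 9.39 in sip53 and 10.52 and 10.55 in siLATS_p53, a rise of 1.05 ± 0.12, and its effect without p53 siRNA was −0.01 ± 0.12. SOD2 differed by −0.12 with p53 siRNA, which did not pass, and fell by −0.82 without it. ATP2B4 differed by 0.07 with p53 siRNA, which did not pass, and fell by −0.69 without it. EGR1 fell in both settings, by −1.13 with p53 siRNA and by −1.76 without.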

How the results depend on the processing

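The 2720 calls numbered 451 with no replicate block, 437 with no block and rescaling, 1666 with only the 2 groups compared, 1654 without the 2 libraries of lowest estimated depth, and 875 to 2767 with each library left out. Rescaling, the other filters, both pseudocounts and leaving out the trend gave between 1884 and 2870. The 250 interaction calls numbered 0 after rescaling, with no replicate block, with both, and without the 2 libraries of lowest depth; the smallest adjusted p was 0.57 with no block. They numbered 23 with the filter at 1 library, 525 at all 8, 2 with no trend and 0 to 37 with each library left out. Of the 153 genes that passed among those the naming rule took, 108 still passed without each library in turn and 71 under every alternative run; none changed direction. Depth limits genes near the floor, where a value of 32 linear stood for 14.6 reads in the shallowest library, siLATS_p53 of batch 1. The cause of these shifts was not tested.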

Other observations

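Below the median level, the entries with the largest rises were chosen after their values were seen. GJA5, which encodes the gap junction protein connexin 40, was 7.52 and 6.64 in sip53 and 11.70 and 11.26 in siLATS_p53, a rise of 4.40 ± 0.11 (adjusted p = 1.31e-11, limma), the largest of all entries tested. Both siLATS_p53 libraries were more than 3 units above both sip53 libraries, and the rise without p53 siRNA was 3.37. MARCH4, a ubiquitin ligase, was at the floor and 5.03 in sip53 and 7.61 and 8.54 in siLATS_p53. Its first sip53 value was the floor, so the difference of 3.06 is a lower bound. The SE of 0.21 does not cover what the floor hides. Without p53 siRNA the difference was 2.77.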
